A study of Mus musculus with 7 samples.

Results

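Glycogen is the glucose store of heart muscle, and 7 genes of its synthesis and breakdown were described in small RNA libraries of crude heart mitochondria from mice with and without the mitochondrial transcription elongation factor Tefm. The 7 genes were taken by name from 49584 listed features: Gyg, Gys1, Gbe1 and Ugp2, which build glycogen, Pygm and Pygb, which break it down, and Pgm2, which serves both directions. They were picked because earlier values of the same knockout and control libraries had shown synthesis genes higher and phosphorylases not. Their differences between the groups are therefore given as a description, without p-values. Counts of calls among them, taken from fits over all genes, carry no weight of their own. The 4 knockout libraries (genotype Tefm -/-, labelled L/L, cre) came from mice with a loxP-flanked Tefm exon and cre expressed from the muscle creatine kinase promoter. That promoter is active in cardiomyocytes and skeletal muscle, so other cells of the heart keep the gene. The 3 control libraries (genotype Tefm +/+, labelled L/L) carried the same loxP-flanked alleles without cre. The labels state no age, sex or strain. The design text counts 4 mice in each group, and the libraries of 3 control mice were used here. A library is treated as 1 animal, and if that is wrong the p-values cover only the spread between libraries.

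Glycogen is started by glycogenin, a protein that attaches the first glucose units to itself. Glycogen synthase then lengthens the chains from UDP-glucose, and the branching enzyme adds side branches. Breakdown runs through glycogen phosphorylase, which releases glucose-1-phosphate from chain ends. The heart expresses the muscle and the brain form of phosphorylase, and uses the store when demand exceeds the supply of fatty acids and oxygen. All 7 genes are nuclear and their mRNAs are translated in the cytosol. Counts for them in small RNA libraries of a mitochondrial preparation are counts of short fragments of such mRNAs.

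Total counts per library ran from 973835 to 2570739, of which nuclear protein-coding genes took between 2.276% and 18.24%, or 29203 to 188642 counts. Levels are given as CPM, that is, the count per 1000000 nuclear protein-coding counts of the same library. The 7 genes together had 113, 260, 367 and 797 counts in knockouts 1 to 4, against 198, 371 and 222 counts in controls 1 to 3. Knockout 1 had the fewest protein-coding counts, 29203, of the 7 libraries. Molecular identifiers are not mentioned, and the intervals printed with counts therefore reflect counting error and nothing else. Libraries of both groups differed in composition, and microRNAs plus snoRNAs over protein-coding genes gave log2 ratios of 1.84, 3.11, 0.54 and -2.44 in knockouts 1 to 4, against 2.88, -1.35 and 0.61 in controls 1 to 3. Tefm itself had 0, 1, 0 and 2 counts in knockouts 1 to 4, against 0, 2 and 1 counts in controls 1 to 3, too few to check the labels.

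All 6 listed cardiomyocyte markers had counts, with a summed level of 28010 to 38280 CPM in knockouts, against 46500 to 71530 CPM in controls. None of the 6 passed the test (edgeR), and the part of this difference in the results on glycogen genes was not tested. Endothelial markers summed to 694.8 to 1410 CPM in knockouts, against 1526 to 2416 CPM in controls, and white blood cell markers to 305.4 to 650.0 CPM, against 665.2 to 961.4 CPM. The white blood cell markers did not all go the same way. Cd74, Lyz2 and Csf1r had lower means in knockouts. Ptprc (56.8 CPM in knockouts, 12.6 CPM in controls) and Cd68 (22.4 and 14.7 CPM) had higher ones, on few counts. Fibroblast markers overlapped between the groups, at 4349 to 10020 CPM in knockouts and 4559 to 7641 CPM in controls. Skeletal muscle markers also overlapped, at 1575 to 2637 CPM and 1597 to 2348 CPM. That sum was mostly Acta1 (462 counts over the knockouts, 68 over the controls) and Ckm (284 and 437), which differed in opposite directions. The other skeletal muscle markers listed had few counts. Myh4 had 9 counts and Tnnt3 2 counts in control 1, and 0 in every other library. Myh1 had 1 count in control 1 and 2 counts in knockout 2, and Tnni2 had 1 count in control 1 and 1 count in control 2. Control 1 also had the highest Pygm and Pygb levels, and a link was not tested. Smooth muscle markers summed to 112.1 to 302.2 CPM in knockouts and 324.5 to 366.9 CPM in controls. Erythroid markers lay at 111.0 to 410.9 CPM in knockouts and 180.9 to 354.2 CPM in controls. Liver markers reached at most 102.7 CPM in knockouts and 19.57 CPM in controls, with Apoa1 and Serpina1a at 0. Markers of neurons and glia, where the brain phosphorylase is also found, reached at most 68.49 CPM in knockouts and 31.2 CPM in controls, with Snap25 and Gfap at 0, and adipocyte markers at most 22.41 CPM and 39.13 CPM, with Lep at 0. Among all these markers, Acta1 rose (log2 fold change 2.26, edgeR adjusted p = 0.035), and Acta2 (-1.29, adjusted p = 0.0379) and Cd74 (-2.0, adjusted p = 0.0191) fell. Means were 73.0 CPM in knockouts and 194.9 CPM in controls for Acta2, and 67.7 and 279 CPM for Cd74. The filter on low counts asks for 138.8 CPM in 3 libraries, so both entered the test through their control values alone. In such bulk samples, fewer cells of a type and less RNA per cell cannot be told apart.

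The promoters of the synthesis and of the breakdown genes are shown so that the letters of both sides can be compared. RefSeq sequences of 300 bases (build GRCm38.p6, 250 before to 50 after the start of the gene, on the strand of the gene) were found for all 7 genes, Pgm2 under another name given below, and for Ugp2 at 2 starts. In the 4 windows printed here, from the primer and the branching enzyme and from the 2 phosphorylases, capitals mark the GC box GGGCGG and the E-box CACGTG, searched on both strands. The Gyg window is chr3:20155067-20155366 (minus strand) and the Gbe1 window chr16:70313699-70313998 (plus strand). The Pygm window is chr19:6384158-6384457 (plus strand) and the Pygb window chr2:150786546-150786845 (plus strand). Windows use RefSeq starts, which can differ from the GENCODE coordinates given below. By the GENCODE coordinates, Gyg starts at 20155317 on its strand, so most of its window lies inside the gene.
Gyg: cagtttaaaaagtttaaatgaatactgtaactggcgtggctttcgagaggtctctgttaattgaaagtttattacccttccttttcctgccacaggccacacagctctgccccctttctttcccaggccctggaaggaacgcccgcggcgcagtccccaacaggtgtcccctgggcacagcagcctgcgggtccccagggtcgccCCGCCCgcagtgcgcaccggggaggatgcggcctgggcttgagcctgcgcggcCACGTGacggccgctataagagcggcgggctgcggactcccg
Gbe1: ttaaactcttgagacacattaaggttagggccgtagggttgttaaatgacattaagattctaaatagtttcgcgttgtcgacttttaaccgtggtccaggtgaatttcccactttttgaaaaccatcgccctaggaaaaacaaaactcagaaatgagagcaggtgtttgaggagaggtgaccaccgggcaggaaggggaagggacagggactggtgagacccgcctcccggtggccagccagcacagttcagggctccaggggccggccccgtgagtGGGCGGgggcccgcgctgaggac
Pygm: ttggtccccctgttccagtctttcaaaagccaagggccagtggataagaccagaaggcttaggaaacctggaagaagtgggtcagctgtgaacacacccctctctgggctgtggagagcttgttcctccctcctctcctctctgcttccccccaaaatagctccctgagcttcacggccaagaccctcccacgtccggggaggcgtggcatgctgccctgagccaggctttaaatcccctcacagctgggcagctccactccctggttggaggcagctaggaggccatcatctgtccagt
Pygb: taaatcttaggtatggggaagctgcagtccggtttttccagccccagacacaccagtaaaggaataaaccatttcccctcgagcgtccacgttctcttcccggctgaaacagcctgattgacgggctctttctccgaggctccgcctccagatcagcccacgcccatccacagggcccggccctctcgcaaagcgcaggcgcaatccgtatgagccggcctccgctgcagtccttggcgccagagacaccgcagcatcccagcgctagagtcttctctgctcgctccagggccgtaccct

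A GC box was present in the windows of Gyg, Gbe1, Ugp2 (both starts), Gys1 and Pgm2, with 3 copies in Gys1, and in neither phosphorylase window. Among 32851 RefSeq promoter windows of the same length, 35.7% hold it. The E-box was in the Gyg window alone among the 7 genes, and 7.15% of all windows hold it. The C/EBP-ATF response element TGATGNAAT, the element bound by Atf4, was in no window of the 7 genes and is in 0.965% of all windows. The element of oestrogen-related receptors TNAAGGTCA (1.28% of all windows) and the cyclic AMP element TGACGTCA (1.79%) were in none of them either. None of the 5 motifs contains another. The windows of the 7 genes were between 54.0% and 76.0% G or C, against a median of 52.7% over all windows (quartiles 45.7% and 61.7%). These matches describe the letters of a short window and say nothing about what binds there.

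The genes that build glycogen were higher in knockout than in control libraries, and the phosphorylases that break it down were near their control level. Between group means, Gyg was 5.70-fold, Gbe1 5.10-fold, Pgm2 4.11-fold and Ugp2 3.42-fold higher in knockouts, with no overlap between the groups. Gys1 was 1.97-fold higher with overlapping groups, and Pygm and Pygb were at 0.764 and 0.921 of their control means. In the fit over all 1602 genes that passed the filter on low counts, 4 of the 7 genes were past the call (edgeR's quasi-likelihood test, Benjamini-Hochberg adjusted p under 0.05), all 4 higher in knockouts, where 8.3% of all genes tested were called higher and 1.56% lower (9.86% in all). Groups did not overlap, with knockouts higher, for the same 4 genes and for 19.9% of all genes tested (7.37% with knockouts lower, 27.3% in all). The 133 higher and 25 lower calls became 84 and 32 with TMM over all genes, 83 and 44 with TMM over protein-coding genes, and 108 and 81 with DESeq2. Since the genes were chosen on this contrast, these counts carry no weight of their own.

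**Figure D1:**
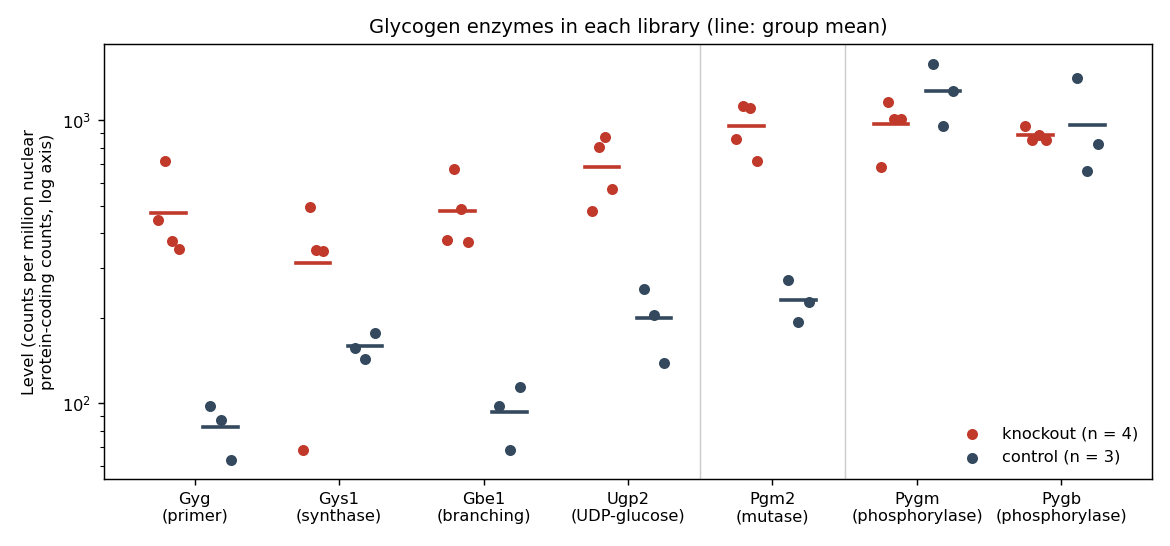
Level of each glycogen enzyme in each library, in CPM on a log axis, with knockout libraries (red, n = 4) left of control libraries (dark, n = 3) and a line at each group mean. For Gyg, Gbe1, Ugp2 and Pgm2 every knockout lies above every control, for Gys1 knockout 1 lies below the controls at 68.5 CPM, and for Pygm and Pygb the groups overlap.

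Gyg, glycogenin (ENSMUSG00000019528.18, GRCm38 chromosome 3, 20122084 to 20155317, minus strand), had the highest fold change of the 7. It stood at 445, 717, 375 and 350 CPM in knockouts 1 to 4, against 97.8, 87.3 and 63.3 CPM in controls 1 to 3. The lowest knockout was thus more than 3 times the highest control, and the knockouts themselves spread over a wider range (471.8 ± 168.6 CPM, SD, n = 4) than the controls (82.81 ± 17.73 CPM, SD, n = 3). The fitted log2 fold change was 2.48 ± 0.36 (SE). The values rest on 138 counts over the knockouts and 24 over the controls, and no control reached the level of 138.8 CPM that the filter asks of 3 libraries.

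Gys1, the muscle form of glycogen synthase (ENSMUSG00000003865.16, chromosome 7, 45434844 to 45456619, plus strand), was the synthesis gene with the smallest difference. It stood at 68.5, 493.1, 347 and 345 CPM in knockouts 1 to 4, against 157, 144 and 177 CPM in controls 1 to 3. In 3 knockouts it lay above 2 times the control mean, and in knockout 1 below every control. That low value is 2 counts, with an exact 95% Poisson interval of 8.29 to 247 CPM, which spans all 3 controls. The log2 fold change was 1.03 ± 0.48 (SE), and 1.29 without knockout 1.

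Gbe1, the branching enzyme (ENSMUSG00000022707.16, chromosome 16, 70313949 to 70569716, plus strand), followed Gyg closely. It stood at 377, 672, 486 and 371 CPM in knockouts 1 to 4, against 97.8, 68.6 and 114 CPM in controls 1 to 3. Again every knockout was over 3 times the highest control, and the log2 fold change was 2.37 ± 0.34 (SE). As for Gyg, no control reached the filter level, so the gene was tested because of its knockout values. The log2 ratio of Gyg to Gbe1 counts within a library was -0.03 ± 0.26 (SD, n = 4) in knockouts and -0.15 ± 0.58 (SD, n = 3) in controls.

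Ugp2 makes UDP-glucose, the donor that glycogen synthase uses (ENSMUSG00000001891.16, chromosome 11, 21321138 to 21371201, minus strand). It stood at 479, 807, 874 and 573 CPM in knockouts 1 to 4, against 254, 206 and 139 CPM in controls 1 to 3, a log2 fold change of 1.78 ± 0.34 (SE). Its lowest knockout and highest control were closer together than those of Gyg or Gbe1, at 479 and 254 CPM.

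The gene named Pgm2 in the files (ENSMUSG00000025791.18, chromosome 4, 99929414 to 99987294, plus strand) lies at the locus that RefSeq calls Pgm1 on the same assembly, with Pgm2 as a synonym. It encodes a phosphoglucomutase, which converts glucose-1-phosphate and glucose-6-phosphate into one another and so links glycogen to glycolysis in either direction. It stood at 856, 1121, 1110 and 721 CPM in knockouts 1 to 4, against 274, 193 and 228 CPM in controls 1 to 3, a log2 fold change of 2.04 ± 0.31 (SE). All knockouts were more than 2.5 times the highest control. The feature named Pgm1 in the files, which RefSeq calls Pgm2, had 2 counts over the knockouts and 1 over the controls.

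Pygm, the muscle form of glycogen phosphorylase (ENSMUSG00000032648.14, chromosome 19, 6384399 to 6398459, plus strand), stood at 685, 1166, 1013 and 1012 CPM in knockouts 1 to 4, against 1585, 955 and 1265 CPM in controls 1 to 3. The log2 fold change was -0.38 ± 0.36 (SE), about the size of its error. Pygb, the form named for brain (ENSMUSG00000033059.7, chromosome 2, 150786735 to 150831758, plus strand), stood at 959, 852, 888 and 853 CPM in knockouts 1 to 4, against 1409, 661 and 822 CPM in controls 1 to 3. Its log2 fold change was -0.11 ± 0.35 (SE), and the knockouts were close to each other (888.1 ± 50.07 CPM, SD, n = 4) while control 1 lay apart from the other controls (964.1 ± 393.3 CPM, SD, n = 3). Without control 1 the log2 fold change of Pygb was 0.26.

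The balance of the 2 phosphorylases overlapped between the groups. Pygm made up 41.7%, 57.8%, 53.3% and 54.3% of phosphorylase counts in knockouts 1 to 4, against 52.9%, 59.1% and 60.6% in controls 1 to 3. The 95% Wilson intervals, from 28.8% to 55.7% in knockout 1 and from 53.0% to 64.9% in control 2, overlap for these libraries, and the log2 ratio of Pygm to Pygb was 0.10 ± 0.40 (SD, n = 4) in knockouts and 0.44 ± 0.24 (SD, n = 3) in controls.

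Per kilobase of exon, the order of the 7 genes differed between the groups. In knockouts the highest level was that of Pgm2, at 326 ± 67.4 CPM per kb, then Pygm at 301 ± 63.0, Ugp2 at 223 ± 61.2, Gyg at 201 ± 71.9 and Pygb at 185 ± 10.4 CPM per kb (SD, n = 4). Neighbours in that order differed by less than the sum of their SDs down to Pygb, and below it came Gbe1 at 89.0 ± 26.3 and Gys1 at 65.4 ± 37.0 CPM per kb. Those last genes also differed by less than the sum of their SDs. In controls Pygm led at 394 ± 97.9 CPM per kb and Pygb followed at 200.5 ± 81.8, and each was above Pgm2 at 79.3 ± 13.8, Ugp2 at 65.1 ± 18.9, Gyg at 35.3 ± 7.56, Gys1 at 33.2 ± 3.54 and Gbe1 at 17.5 ± 4.28 CPM per kb (SD, n = 3). There Pgm2 and Ugp2, and likewise Gyg and Gys1, differed by less than the sum of their SDs, and the other neighbours by more. A level per length of fragments in a size-selected library depends also on which fragments form, so this order describes the libraries.

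Within each library, where scaling between libraries cancels, synthesis genes stood higher relative to phosphorylases in knockouts. The mean log2(count + 0.5) of Gyg, Gys1, Gbe1 and Ugp2 minus that of Pygm and Pygb was -1.48, -0.58, -0.96 and -1.21 in knockouts 1 to 4, against -3.32, -2.75 and -3.07 in controls 1 to 3. Groups did not overlap, with means of -1.06 ± 0.38 (SD, n = 4) in knockouts and -3.05 ± 0.29 (SD, n = 3) in controls, and the difference was 1.99, or 3.97-fold. Small RNA content varied among libraries of both groups, as given above, and its part in this difference was not tested. Leaving out each library in turn gave differences between 1.83 and 2.14.

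Single pairs differed in how far they followed this. The log2 ratio of Gyg to Pygm was -1.06 ± 0.48 in knockouts and -3.83 ± 0.40 in controls (SD, n = 4 and 3), a difference of 2.77 without overlap. The ratio of Gys1 to Pygm, the enzymes that lengthen and shorten chains, was -3.04, -1.22, -1.53 and -1.55 in knockouts 1 to 4, against -3.26, -2.71 and -2.79 in controls 1 to 3. Knockout 1, with its 2 Gys1 counts, lay among the controls and the other knockouts above them. The ratio of primer to synthase, Gyg to Gys1, was 2.43, 0.53, 0.11 and 0.02 in knockouts 1 to 4, against -0.63, -0.70 and -1.40 in controls 1 to 3, again with knockout 1 apart.

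**Figure D2:**
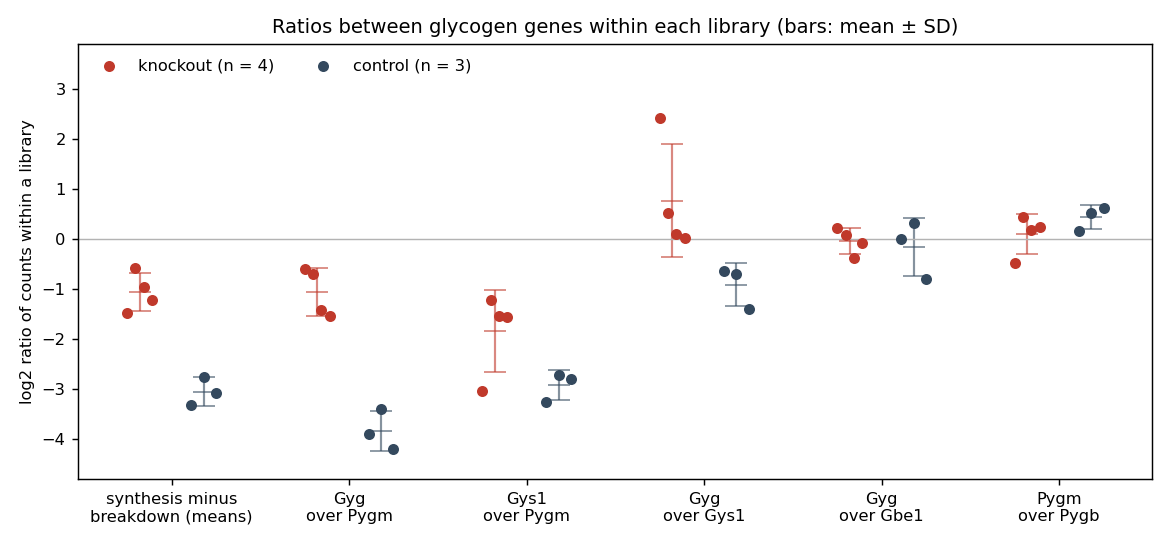
Log2 ratios of counts within each library for the mean of synthesis minus breakdown genes and for 5 pairs of genes, with knockout libraries (red, n = 4) left of control libraries (dark, n = 3) and bars at the mean ± SD. Knockouts lie above controls without overlap for synthesis minus breakdown, Gyg over Pygm and Gyg over Gys1, and the groups overlap for Gys1 over Pygm, Gyg over Gbe1 and Pygm over Pygb.

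Of the other glycogen genes, Hk1 and Prkab2 passed the test, and Prkab2 had entered it through its knockout values alone. Hk1 reached the filter level in 4 knockouts and 2 controls, where 3 libraries are asked, so its control values alone would not have sufficed. The list held 27 regulators and further enzymes and 4 genes of glucose entry, of which 11 could be tested. Of these 11, 2 rose and 0 fell (by edgeR 158 of 1602 genes were called, 9.86%), with a median log2 fold change of 0.65, against 0.27 over all genes tested. Over all genes tested, 8.3% were called higher and 1.56% lower. A gene with a low control level could pass the filter only through the knockouts, so neither count nor median speaks for the whole list.

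Prkab2, a subunit of AMP-activated kinase with a glycogen-binding module (chromosome 3, 97658193 to 97673812, plus strand), stood at 206, 269, 222 and 138 CPM in knockouts 1 to 4, against 0, 49.9 and 12.7 CPM in controls 1 to 3. Its log2 fold change was 2.73 ± 0.60 (adjusted p = 0.0312 by edgeR), on 60 counts over the knockouts and 9 over the controls. As 3 knockouts and 0 controls reached the filter level, it was tested only because it was high in knockouts. The call ended without control 3 (edgeR adjusted p = 0.121), without control 2 (log2 fold change 4.46, adjusted p = 0.05) and without knockout 2 (adjusted p = 0.0598), and without knockout 3 the gene was no longer tested. Hk1, a hexokinase that binds the outer mitochondrial membrane (chromosome 10, 62268855 to 62379908, minus strand), stood at 651, 628, 694 and 620 CPM in knockouts 1 to 4, against 274, 187 and 114 CPM in controls 1 to 3. It rose by 1.77 ± 0.32 (edgeR adjusted p = 0.0178), and the adjusted p was 0.0853 without control 2, 0.0662 without control 3 and 0.0506 without knockout 3. Both genes were higher in 4 of 4 knockouts than in any control, as were 19.9% of all genes tested.

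The remaining genes that could be tested did not pass. Gaa, the lysosomal enzyme that digests glycogen, had -0.39 ± 0.37, and Ppp1r3a and Ppp1r3c, which bring protein phosphatase 1 to glycogen, had -0.48 ± 0.34 and 0.30 ± 0.49. Ppp1cb, a catalytic subunit of that phosphatase, had 0.65 ± 0.28, Gsk3b, a kinase that inhibits glycogen synthase, 0.65 ± 0.35, and Prkaa2, the catalytic subunit of AMP-activated kinase of muscle, 0.70 ± 0.35. Pgm5, a relative of phosphoglucomutase found at cell junctions, had 0.99 ± 0.31 (edgeR adjusted p = 0.0811). Hk2, the insulin-regulated hexokinase, had 0.55 ± 0.28 and Slc2a4, the insulin-regulated glucose transporter, -0.77 ± 0.31 (edgeR adjusted p = 0.152). The subunits of phosphorylase kinase and the laforin gene Epm2a had too few counts, with at most 34 over the knockouts, for Phkb.

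Stbd1 and Slc2a1 lay under the filter and are named after their values were seen. Stbd1 encodes a glycogen-binding membrane protein (chromosome 5, 92603041 to 92606579, plus strand). It had 7, 6, 6 and 15 counts in knockouts 1 to 4, against 0 counts in each of controls 1 to 3. Against a floor of 3 counts over the control group it was at least 9.84-fold higher in knockouts. Since it was picked for this difference and could enter a fit only through the knockouts, no test is given for it. Slc2a1, the basal glucose transporter, had 2, 9, 7 and 25 counts in knockouts 1 to 4, against 0, 5 and 3 counts in controls 1 to 3. Its log2 fold change was 2.18 with a minimum count of 5. Slc2a1 too was picked after its values were seen and could pass a filter only through the knockouts, so no test is given for it either.

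Glycolysis, into which glucose-6-phosphate from glycogen flows, held 1 call in each direction. Of 16 genes listed, 11 could be tested, of which 1 rose and 1 fell, with a median log2 fold change of 0.50, where 8.3% of all genes tested were called higher and 1.56% lower (9.86% in all) and the median was 0.27. Pfkp, a phosphofructokinase, stood at 274, 448, 250 and 265 CPM in knockouts 1 to 4, against 0, 37.4 and 101.2 CPM in controls 1 to 3, and the log2 fold change was 2.61 ± 0.59 (edgeR adjusted p = 0.0335, over 0.05 without control 2 at 0.155, without knockout 2 at 0.0501 and without knockout 3 at 0.0789). It reached the filter level in 4 knockouts and 0 controls, so it too entered the test through the knockouts alone. Eno3, the muscle enolase, stood at 137, 269, 402 and 180 CPM in knockouts 1 to 4, against 900, 537 and 835 CPM in controls 1 to 3, and fell by 1.58 on the log2 scale (SE 0.39; adjusted p = 0.044 by edgeR). That call was lost without any of the 3 controls or of knockouts 1, 2 and 4, with adjusted p between 0.0727 and 0.141. Gpi1, which passes glucose-6-phosphate on, had 0.91 ± 0.25 (edgeR adjusted p = 0.0583), and Pfkm, the muscle phosphofructokinase, -0.62 ± 0.33. Pfkl (1.1 ± 0.48), Aldoa (0.72 ± 0.38), Tpi1 (0.50 ± 0.20), Pkm (0.62 ± 0.32), Ldha (0.21 ± 0.37), Pgam2 (-0.38 ± 0.45) and Ldhb (-0.49 ± 0.26) did not pass either.

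**Figure D3:**
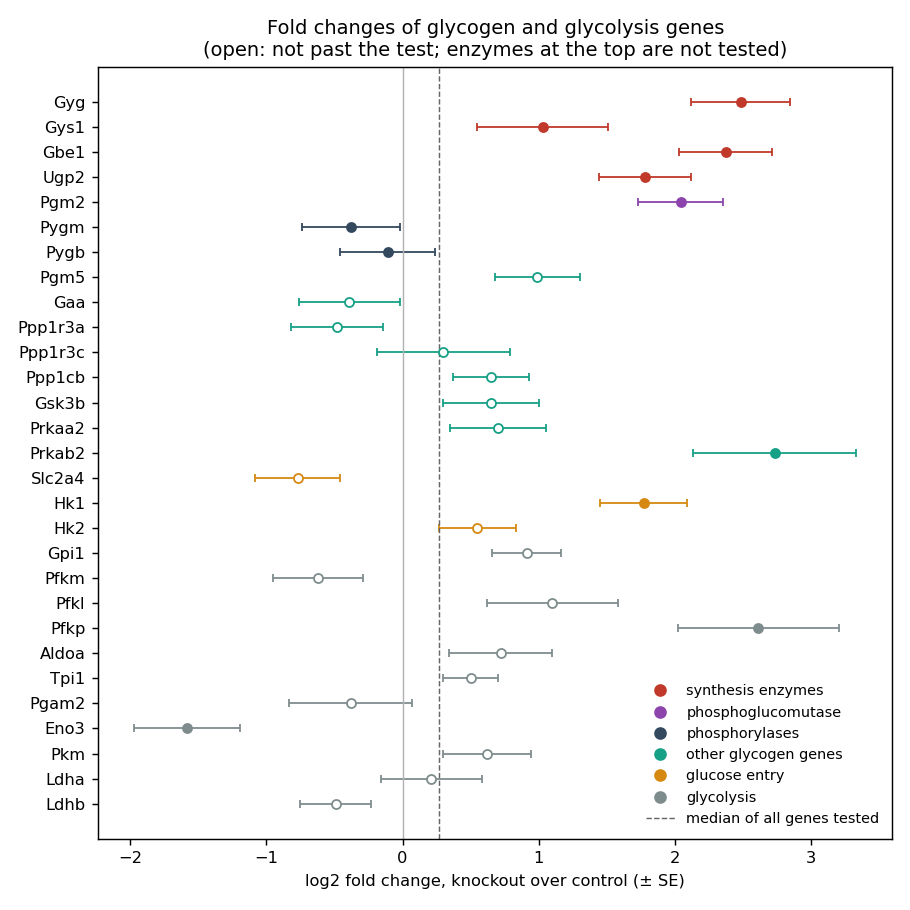
Log2 fold change, knockout over control, with its standard error, for the 7 glycogen enzymes and the tested genes of the other lists, and the median of all genes tested as a dashed line at 0.27. Filled circles among the other lists mark Prkab2, Hk1, Pfkp and Eno3, which passed the test (Prkab2 and Pfkp entered it through their knockout values alone), open circles mark genes that did not, and the 7 enzymes at the top are a description only.

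Compared with nuclear protein-coding totals, each other scaling moved all 7 genes in the same direction, by unequal amounts. The median log2 fold change over all genes tested was 0.27 with nuclear protein-coding totals, -0.02 with TMM over all genes, 0.03 with TMM over protein-coding genes and 0.89 with total counts. Gyg ran from 2.16 to 3.05 over all 18 settings, Gbe1 from 2.09 to 3.05, Pgm2 from 1.76 to 2.75, Ugp2 from 1.5 to 2.53 and Gys1 from 0.76 to 1.91. Pygm was negative in all settings but total counts, where it was 0.55, and Pygb in all but total counts, at 0.77, and the fit without control 1. Under each of the 4 scalings both phosphorylases lay below the median of all genes and the other 5 genes above it. The authors' deposited table gives the same signs. It holds log2 fold changes of 1.98 for Gyg, 1.93 for Gbe1, 1.69 for Pgm2 and 1.41 for Ugp2. Those of Gys1, Pygm and Pygb are 0.66, -0.60 and -0.35. The deposited values come from the same series, on which the genes were chosen, so equal signs carry no weight of their own. Since the genes were chosen on this contrast, calls among them carry no weight of their own. How many of the 7 were past the call rested on single libraries. It was 0 without control 2 (13 of 1657 genes called, 0.785%), 2 without control 3 (2.39% of genes called) and 3 without knockout 3 (3.55%). It was 4 without control 1 (5.71%), knockout 2 (5.82%) or knockout 4 (11.2%), and 5 without knockout 1 (10.2%). Among the other settings it was 0 with total counts (0.731%), 1 with the replicate number as a block (0.936%) and 5 with library composition as a covariate (27.7%). It stayed at 4 with TMM over all genes (7.71%) or over protein-coding genes (7.93%), without a filter (1.67%), with a minimum count of 5 (5.46%), over nuclear protein-coding genes alone (21.7%), with DESeq2 (1.19%) and with totals that leave out Lars2 (9.19%).

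**Figure D4:**
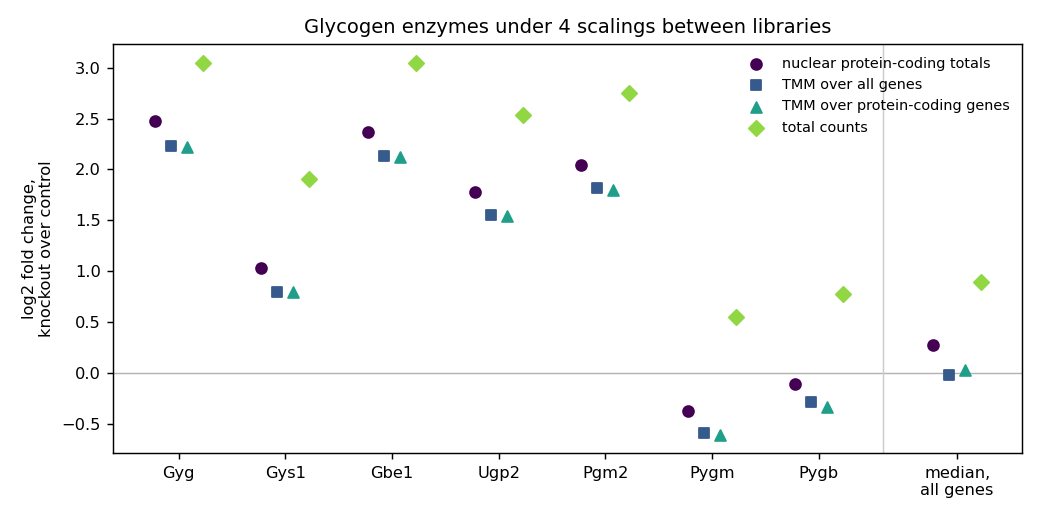
Log2 fold change, knockout over control, of the 7 glycogen enzymes under 4 scalings between libraries, with the median over all genes tested under the same scaling at the right. That median is 0.89 with total counts and 0.27 with nuclear protein-coding totals. The genes shift in the same direction between these scalings, by unequal amounts. Gyg is at 3.05 with total counts and 2.48 with protein-coding totals, and Pygm at 0.55 and -0.38.

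The genes most like each side over the 7 libraries were found among 1306 other tested nuclear protein-coding genes, by Pearson's r of log2 levels, which share the library and its depth. The mean of the synthesis genes was followed most closely by Eef1a1, a translation elongation factor (r = 0.985), and by Nrap and Xirp1, proteins of the junctions and thin filaments of heart muscle (r = 0.983 each). The mean of Pygm and Pygb was followed by Idh3b, a subunit of isocitrate dehydrogenase (r = 0.911), Atp5f1, a subunit of ATP synthase (r = 0.892), and Uqcrc1, a subunit of complex III (r = 0.869). Eef1a1 stood at 445, 762, 666 and 546 CPM in knockouts 1 to 4, against 235, 268 and 215 CPM in controls 1 to 3. With both groups pooled, a shared difference between the groups is enough to give a high r.

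Some of the 7 genes overlap or resemble other genes. Gys1 overlaps exons of Ruvbl2 on the opposite strand over 310 bases, Pgm2 those of Itgb3bp over 398 bases, and Ugp2 those of Gm12043 over 78 bases. These 3 overlapping partners had at most 2 counts in any library, and the strand setting of the counting is unknown. Of all 20-base words in the transcripts of Pygm, 2.80% occur in another gene, nearly all in Pygb, so reads could be split between the phosphorylases over a small part of their length. The share was 0.0854% for Gyg, 0.298% for Gbe1, 2.65% for Ugp2, 9.81% for Gys1 and 23.1% for Pgm2, whose shared words lie mostly in Itgb3bp. The words of Gys1 were shared with 2127 genes, 274 of its 472 shared words with Ruvbl2, and the counts of the other genes were not examined.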

How the data were processed

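Small RNA libraries of crude heart mitochondria were sequenced from a single end, per the labels' protocols, with a MiSeq. Raw read counts for each gene are the authors' deposited values. The submitters' processing notes name, in no order, DESeq2 1.14.1 and R 3.3.2, featureCounts, bedtools, cutadapt 1.10, SAMtools 1.3.1, Bowtie2 and the build mm10. Not given in the sources used here: annotation release, strand setting and the treatment of reads with several matches. A table deposited by the authors holds a log2 fold change per gene, per the file headers, and the gene names used here.

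Counts were divided by nuclear protein-coding totals (type protein_coding, mitochondrially encoded features left out) and tested with edgeR 4.0.16 in R 4.3.3, with a low-count filter (minimum count 10) and Benjamini-Hochberg adjustment over all 1602 genes tested, called under 0.05. Named were the 7 genes, tested genes of the lists and the 3 genes most like each side. Untested genes of the lists that the text names were chosen after their values were seen. 1 further gene of these pathways was left out and is not reported here. Members and lists were chosen with earlier results of these data known. Alternatives were other scalings, filters and gene sets, DESeq2 1.42.0, a replicate block, a composition covariate and each library left out. A scaling without Lars2, which took up to 16.6% of protein-coding counts, was added after the data were seen. Exonic lengths and coordinates are from GENCODE M21 (GRCm38), and promoters from RefSeq (GRCm38.p6). Python 3.11.15, pandas 2.3.3 and scipy 1.17.1 were used.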

Additional observations from a re-analysis of the deposited data

Results flagged for a closer look

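Of 37 sets of knockout values checked for a library far from the rest, 1 stood out: Pfkp was at 448 CPM in knockout 2, against 250 to 274 CPM in the other knockouts, and the gap took up 0.879 of the range of the 4 values. Chance gives such a gap in about 1 of 20 sets.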

How the results depend on the processing

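The number of genes called, 158, became 11 with total counts, 265 without a low-count filter, 285 over nuclear protein-coding genes alone, 444 with the composition covariate and between 13 and 160 without single libraries. Of the other glycogen genes 2 were called, and 0 with total counts, 1 with TMM over protein-coding genes, 4 without a filter, 4 with the covariate and 0 to 3 without single libraries. Of the glycolysis genes 2 were called, and 0 with total counts, 1 with TMM over protein-coding genes, 1 with a minimum count of 5 and 0 to 1 without single libraries. Among fits without a single library, the fewest calls over all genes came without control 2, where 13 genes passed by edgeR (327 at an unadjusted p under 0.05). Where 0 of the lists were called, 147 genes had an unadjusted p under 0.05 with total counts and 401 with the block. With the replicate number as a block 15 genes were called over all genes, 0 of the other glycogen genes and 0 of the glycolysis genes. The labels do not say whether equal replicate numbers pair libraries. Deviations of same-numbered libraries from their group means correlated at 0.528, -0.79 and 0.284, and values of mixed sign cannot settle it. DESeq2 called 189 genes. The cause of these shifts was not tested. Some of these fits also held fewer libraries or a different number of genes, and others held the same libraries and genes.

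Synthesis minus breakdown, 1.99, was 1.25 with Pgm2 counted as a breakdown gene, 2.35 without Gys1, between 1.69 and 2.16 under the other changes of genes, pseudocount or summary, and between 1.83 and 2.14 without single libraries. Among the other genes named, signs reversed for genes that had not passed: with total counts Gaa (0.55), Ppp1r3a (0.26), Slc2a4 (0.09), Pfkm (0.12), Pgam2 (0.45) and Ldhb (0.37); with TMM over protein-coding genes Ldha (-0.04); with DESeq2 Ppp1r3c (-0.01) and Ldha (-0.08); and without single libraries Ppp1r3c (lowest -0.09, highest 0.95; -0.02 without control 2), Pgam2 (-0.63 to 0.14) and Ldha (-0.01 to 0.38). Depth limits Gys1 in knockout 1 (2 counts) and all genes under the filter.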
